A study of Bos taurus with 15 samples.

Results

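Parietal cells of the newborn (NB) cattle abomasum were examined as 828 barcodes of the NB abomasum library, chosen by their measured level of *ATP4A* (ENSBTAG00000008777), the gene of the catalytic subunit of the gastric proton pump. A barcode was taken when it had 500 to 4000 genes, under 50000 UMIs, and at least 0.3% of its UMIs from *ATP4A*. The 828 barcodes were 8.28% (Clopper-Pearson 95% interval 7.74 to 8.83) of the 10004 barcodes of the library within the gene and UMI limits and 5.83% of its 14198 barcodes, in a series of 172405 barcodes. All other 13370 barcodes of the library served as the contrast. The abomasum came from a newborn Holstein calf, and which of the calves of the study gave this library is not named in the sources used here. The series had 15 libraries of NB and adult (AD) cattle tissues and was made by 10x Genomics scRNA-seq, which tags every cell with a barcode and every RNA molecule with its own identifier (UMI). The abomasum was represented by 1 library, so differences have no replicate error, no test was made, and intervals cover counting error only. Before counting, the outer muscle was removed and the tissue was treated with EDTA, trypsin, and a mixture of collagenases, hyaluronidase, dispase, and DNase I.

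The abomasum is the glandular stomach of ruminants, where milk is clotted by chymosin (*CYM*) and protein digestion begins. Parietal cells of its glands secrete hydrochloric acid. The H+/K+ ATPase, made of *ATP4A* and *ATP4B*, exchanges protons for potassium at an inner canal of the cell, potassium and chloride channels feed that exchange, and bicarbonate leaves through the opposite side. The cells also secrete gastric intrinsic factor (*CBLIF*) in many mammals, answer to histamine and gastrin, and are known for their many mitochondria, which supply the ATP of the pump.

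The *ATP4A* barcodes held 7523669 of the 102878281 UMIs of the library (7.31%). They had a lowest, median, and highest depth of 808, 9076, and 27804 UMIs and of 503, 1910, and 3775 genes. The median of the other barcodes was 3974 UMIs and 1253 genes, or 6657 UMIs and 1566 genes for those within the limits. The highest doublet scores, which mark barcodes that resemble mixtures of 2 cells, were carried by 111 *ATP4A* barcodes (13.4%). Of the barcode sequences of the library, 589 also occurred in at least 1 other library, 36 of them among the 828. No barcode of the 14 other libraries met the rule (0 of 122357 within the limits), and *ATP4A* reached at most 0.0480 CPM there (UMIs of the gene per 1000000 UMIs).

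The share of *ATP4A* was 0.304% of UMIs at the lowest, 1.08% at the median, and 2.78% at the highest barcode. These values chose the barcodes and are given as a description. The distribution had a low region around the threshold, with 34 barcodes at 0.25% to 0.3% and 26 at 0.3% to 0.35%. The 34 just outside had a median of 1424 CPM of *ATP4B* and 1260 CPM of *CBLIF*, and the 26 just inside had 2067 and 1072 CPM. Mitochondrial RNA was 25.9% of UMIs at the median just outside and 50.0% just inside. The quartiles of *ATP4B* were 871 and 2074 CPM just outside and 1570 and 3427 CPM just inside, so the ranges overlapped. At any size, 1163 barcodes reached 0.3%, of which 334 had under 500 genes and 1 had more than 4000. The 334 are among the 13370 other barcodes and add to their levels of parietal genes. Summed over the 334, *ATP4B* had 3415 CPM and *CBLIF* 1973 CPM.

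**Figure D1:**
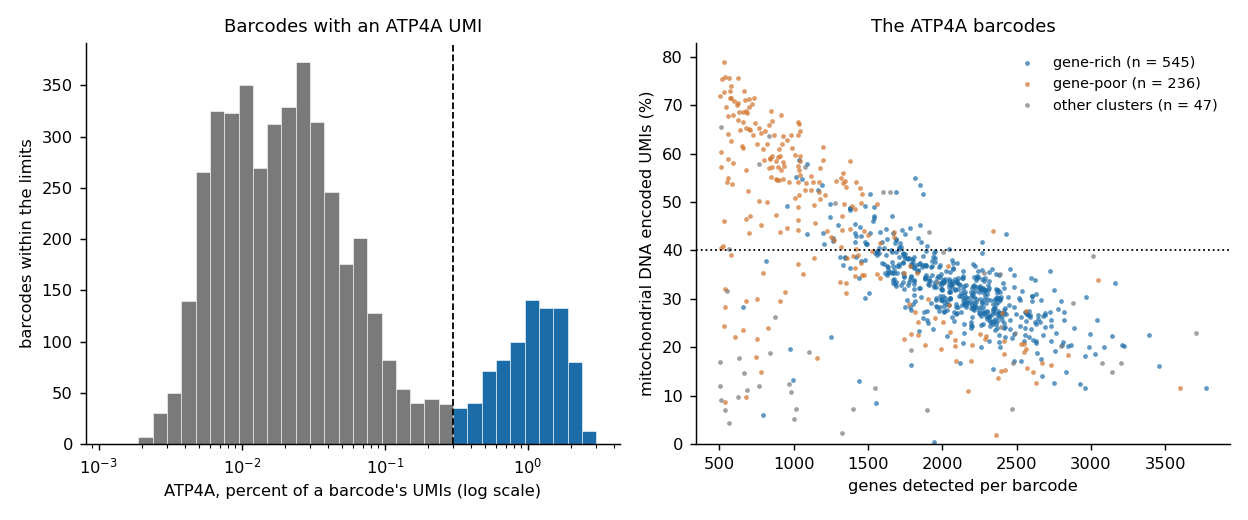
Left, number of barcodes within the gene and UMI limits by their share of *ATP4A* (log scale, only barcodes with an *ATP4A* UMI), with the dashed line at 0.3% and the 828 chosen barcodes in blue. Right, genes detected and mitochondrial DNA encoded percent of UMIs for each of the 828 barcodes, by cluster, with the dotted line at 40%: the 236 gene-poor barcodes reach the highest mitochondrial shares (median 50.7%), while the 545 gene-rich barcodes lie lower (median 31.8%).

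The name of the cells was checked with other parietal markers. Of the 10 markers listed, 9 were found in the files, 6 passed the filter of at least 5 CPM over the library, and 1 of these was *ATP4A* itself, which chose the barcodes. *ATP4B*, *AQP4*, and *KCNJ15* were at least 2-fold higher in the *ATP4A* barcodes than in all others. *KCNJ15* did not mark them among epithelial cells, with 112 CPM beside 197 CPM in the cluster led by *GKN1* and *TFF1*, where *ATP4B* had 73.5 and *AQP4* 3.27 CPM. *KCNE2* (118 and 3.06 CPM) and *HRH2* (44.4 and 2.74 CPM) passed the filter only through the *ATP4A* barcodes, so their values are a description. An *ATP4B* UMI was seen in 825 of the 828 barcodes, a *CBLIF* UMI in 816, and both in 814. An *MKI67* UMI, a mark of dividing cells, was seen in 8. *ATP4A* UMIs were also found in other cells. In the 14 non-epithelial clusters, which should lack the gene, 42.4% of barcodes had an *ATP4A* UMI, at 131 CPM and a median of 3777 UMIs. After each barcode had been thinned to 1000 UMIs, *ATP4B*, which the rule did not use, was seen in 97.4% of the *ATP4A* barcodes, 12.2% of the non-epithelial barcodes, and 6.72% of the barcodes of other epithelial clusters.

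Endothelial, fibroblast, and myeloid markers were low in the *ATP4A* barcodes. All 6 endothelial, 6 fibroblast, and 6 myeloid markers were at least 2-fold lower than in the other barcodes. The summed level was 53.8 and 566 CPM for the endothelial, 285 and 1255 CPM for the fibroblast, and 20.2 and 358 CPM for the myeloid list. In the 2 clusters that held 781 of the *ATP4A* barcodes, it was 85.3 and 58.5 CPM for the fibroblast and 8.68 and 9.29 CPM for the myeloid list, and the other 47 *ATP4A* barcodes had the higher levels. The tested markers of neck (2) and enteroendocrine cells (2) were all lower, as were those of chief cells (3) and 2 of 3 of pit cells. On the scale of log2(CPM + 5), the lowest gene was *GHRL*, the hormone ghrelin of endocrine cells (25.5 CPM and 880 CPM), followed by *C1QA* of macrophages (6.65 and 178 CPM). Of 8 tested epithelial markers, 1 was higher and 3 were lower, with a median log2 ratio of -0.59. The higher one was *CDH1*, the adhesion protein E-cadherin (162 and 52.5 CPM). *CDH1* had 297 CPM in the cluster led by *GKN1* and *TFF1* and 131 CPM in the clusters led by *TFF3* and *CLCA1*. It had 28.1 CPM in the clusters led by *CYM* and *LYZ2* and 18.0 CPM in the non-epithelial clusters. The lower markers were the keratins *KRT8* (113 and 280 CPM), *KRT18* (168 and 442 CPM), and *KRT7* (3.59 and 38.0 CPM). Of 7 tested markers of dividing cells, 6 were lower and *NUSAP1* was higher (23.5 and 6.91 CPM), and the summed level of the list was 44.4 and 127 CPM.

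Of 7810 genes with at least 5 CPM over the library, 809 (10.4%) were at least 2-fold higher in the *ATP4A* barcodes and 981 (12.6%) at least 2-fold lower, on the scale of log2(CPM + 5). The share of higher genes depended on the scaling. With mitochondrial DNA encoded genes left out of the total, 1556 were higher and 767 lower, and the median log2 ratio of all genes moved from 0.024 to 0.388. With every gene above 1% of UMIs left out of the total, 751 were higher and 1451 lower, and the median was -0.133. Against barcodes of other epithelial clusters alone, 1157 were higher and 260 lower. Counts of genes in lists below are read against the 10.4% and 12.6%.

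The genes of the pump and of intrinsic factor led the ranking together with several genes that were not on the acid secretion list. *CBLIF* (ENSBTAG00000012057) had 6819 CPM (interval 6760 to 6878) in the *ATP4A* barcodes and 82.3 CPM in the others, a ratio of 82.9 (80.9 to 84.9). *ATP4B* (ENSBTAG00000019961), the subunit that carries the pump to the membrane, had 7020 CPM (6961 to 7080) and 112 CPM, a ratio of 62.8 (61.5 to 64.1). Its level in single barcodes was 0 CPM at the lowest, 6516 at the median, and 23293 at the highest. *TNNI3* (ENSBTAG00000002515), known as the inhibitory troponin of heart muscle, had 2790 CPM (2753 to 2828) and 41.7 CPM. A *TNNI3* UMI was seen in 95.4% of the *ATP4A* barcodes, and no other troponin gene passed 2 CPM in them.

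Among the other leading genes were *AQP4*, a water channel (484 and 6.02 CPM), *KLK1*, a tissue kallikrein (487 and 6.69 CPM), and *ATP6V1G3*, a subunit of the vacuolar proton pump (361 and 4.47 CPM). *FABP3*, which binds fatty acids and is abundant in heart, had 780 and 18.4 CPM, with 446 CPM in the cluster led by *GHRL*. *FABP5* of the same family was among the lowest genes (68.1 and 838 CPM). *CDH16*, the cadherin of kidney epithelium, had 1006 and 28.4 CPM. *TMEM30C*, *DPEP1*, *GSTA3*, *CLEC2L*, *SERPINA5*, *TMEM92*, *PHLDA2*, and *EIF5A2* also stood among the 25 highest log2 ratios, at 95.7 to 694 CPM. Of the 25, *ATP6V1G3*, *TMEM30C*, *DPEP1*, *GSTA3*, *CLEC2L*, *KCNE2*, and *EIF5A2* had 1.75 to 4.47 CPM in the other barcodes and passed the filter of 5 CPM only through the *ATP4A* barcodes. *SLC16A7*, a monocarboxylate carrier, had 409 and 12.0 CPM. *ENSBTAG00000011402* and *ENSBTAG00000001753*, without a symbol in the files, had 280 and 5.69 CPM and 1277 and 54.6 CPM.

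**Figure D2:**
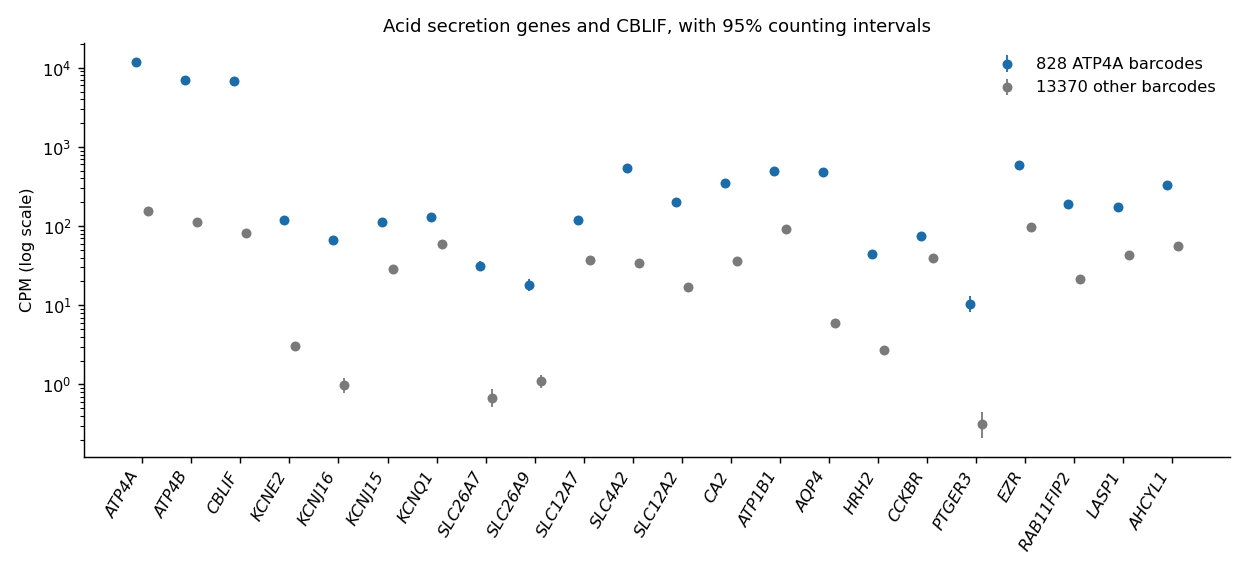
CPM (log scale) of the pump, *CBLIF*, and genes of potassium and chloride transport, acid supply, water, receptors, and the pump membrane in the 828 *ATP4A* barcodes (blue) and the 13370 other barcodes (grey), with 95% Poisson counting intervals. The genes were picked after their values were seen, and the blue point lies above the grey point for each, by the least for *CCKBR* (74.6 and 39.4 CPM).

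The acid secretion list without *ATP4A* had 64 genes in the files, of which 36 passed the filter. Of the 36, 18 were at least 2-fold higher and 2 lower, and the median log2 ratio was 0.983 beside 0.024 for all genes. *KCNE2*, *KCNJ16*, and *HRH2* passed the filter only through the *ATP4A* barcodes, and with no filter on low genes the median of the list was 0.343. Of 5 tested potassium channel genes 4 were higher, and 2 of the 4 were *KCNE2* and *KCNJ16*. The potassium channel list summed to 432 CPM in the *ATP4A* barcodes, 101 CPM in the others, and 341 CPM in the cluster led by *GKN1* and *TFF1*. *KCNE2*, the partner of the *KCNQ1* channel in parietal cells, had 118 CPM (110 to 126) and 3.06 CPM, and *KCNQ1* itself had 129 CPM (121 to 138) and 59.0 CPM. The inward rectifier channel genes *KCNJ15* (112 and 28.9 CPM) and *KCNJ16* (66.99 and 0.975 CPM) were higher as well. Of the 341 CPM in the *GKN1* and *TFF1* cluster, *KCNJ15* had 197, *KCNE2* 1.01, and *KCNJ16* 0.755 CPM. The rest came from *KCNQ1* and the other genes of the list. *KCNQ1* is therefore not shown to mark the *ATP4A* barcodes among epithelial cells. *KCNE1*, *KCNE3*, *KCNJ1*, *KCNJ10*, and *KCNJ13* had at most 9 UMIs in the *ATP4A* barcodes and were not tested.

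Of the chloride path list, 2 of 8 genes were tested and 1 was higher. The list summed to 200 CPM in the *ATP4A* barcodes, 67.0 CPM in the others, and 239 CPM in the cluster led by *GKN1* and *TFF1*. *SLC26A7*, a chloride exchanger, had 31.5 CPM (27.6 to 35.8) and 0.682 CPM, and *SLC26A9* had 18.2 CPM (15.3 to 21.5) and 1.09 CPM, or 137 and 104 UMIs. Both fell under the filter of 5 CPM over the library. *SLC12A7*, a potassium and chloride cotransporter and the higher gene, had 119 and 37.1 CPM. *CFTR*, *CLCN2*, and *ANO1* had at most 1.06 CPM in the *ATP4A* barcodes.

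For acid supply and for exchange on the side of the cell where bicarbonate leaves, 5 of 9 tested genes were higher and 1 was lower. *SLC4A2*, the chloride and bicarbonate exchanger of parietal cells, had 549 CPM (532 to 566) and 33.8 CPM, a ratio of 16.2 (15.5 to 17.0). *SLC12A2*, the sodium, potassium, and chloride cotransporter, had 202 and 17.0 CPM, and *CA2*, the carbonic anhydrase that makes the protons available, had 355 and 35.9 CPM. *CA9* was the lower gene (45.3 and 165 CPM). *ATP1B1*, a subunit of the sodium pump, was higher (489 and 92.9 CPM), while the sodium and proton exchangers *SLC9A2* (15.4 and 11.9 CPM) and *SLC9A4* (11.3 and 15.4 CPM) differed by less than 2-fold.

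Of the receptor genes, *HRH2* for histamine had 44.4 CPM (39.8 to 49.4) and 2.74 CPM, and *CCKBR* for gastrin had 74.6 CPM (68.5 to 81.0) and 39.4 CPM, a ratio of 1.89 (1.73 to 2.07). *PTGER3* for prostaglandin E had 10.5 and 0.315 CPM and was under the filter. *CHRM3*, the muscarinic receptor of acetylcholine, had 3 UMIs in all 828 barcodes (0.399 CPM), and *SSTR2*, *CASR*, *GALR1*, and *CHRM5* had 0, which allows up to 0.490 CPM by the exact Poisson interval. A receptor at such a level may still be expressed below this depth. *PTGER4* was lower (1.86 and 14.7 CPM).

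For the membranes that store and insert the pump, 5 of 15 tested genes were higher and none was lower against all other barcodes. The summed level of the list was 2242 and 865 CPM, and it was 3578 CPM in the cluster led by *GKN1* and *TFF1*, above that of the *ATP4A* barcodes. *EZR*, the ezrin that links the canal membrane to actin, had 597 CPM (579 to 614) and 96.2 CPM. *RAB11FIP2* (191 and 21.2 CPM), *LASP1* (172 and 43.8 CPM), *AHCYL1* (334 and 55.8 CPM), and *MUC1* (400 and 170 CPM) were also higher. *RAB11A*, *RAB25*, and *VAMP8*, which serve vesicle traffic, differed by less than 2-fold (66.7 and 56.2, 47.6 and 56.1, and 130 and 123 CPM). Of 14 secreted factors, *VEGFB* was higher beside *CBLIF* (171 and 32.6 CPM), and *PDGFA*, *BMP4*, and *IHH* were lower.

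The nuclear genes of the respiratory chain were higher as a group. Of 77 tested, 72 were at least 2-fold higher and 2 lower, with a median log2 ratio of 2.32. Summed over the 79 genes found, the level was 56579 CPM in the *ATP4A* barcodes and 9699 CPM in the others. All 37 tested genes of complex I and all 9 of complex III were higher, as were 2 of 4 of complex II, 9 of 11 of complex IV, and 15 of 16 of complex V. *ATP5MC1*, a copy of the c subunit of ATP synthase, had 2225 CPM (2191 to 2259) and 104 CPM, while *ATP5MC2*, for the same protein, had 346 and 230 CPM. In complex IV, *COX8B* had 1350 and 44.9 CPM, and the 2 lower genes were *COX4I2* (0.266 and 7.56 CPM) and *COX7A1* (1.60 and 10.2 CPM).

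The 13 genes encoded by mitochondrial DNA were all at least 2-fold higher and summed to 335996 CPM in the *ATP4A* barcodes and 87398 CPM in the others. The share per barcode was 0.470% at the lowest, 33.1% at the median, and 79.0% at the highest, beside a median of 7.18% in all other barcodes and 5.03% in those within the limits. This share counts the 13 genes of mitochondrial DNA that have a symbol in the files, so any further RNA of mitochondrial DNA is not in it. With 40% as the limit, which the methods of the study used, 228 *ATP4A* barcodes (27.5%) would be left out, beside 1.10% of the other barcodes within the limits. The nuclear respiratory genes were higher by a median log2 ratio of 2.44 when only barcodes under 40% were compared. A high mitochondrial share also marks damaged cells, and its part in these values was not tested.

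Most tested genes of the citric acid cycle and of fatty acid oxidation were higher as well. Of 16 tested citric acid cycle genes 15 were higher, among them *IDH2* (2081 and 122 CPM) and *CS* (317 and 19.2 CPM). Of 16 tested genes of fatty acid oxidation 14 were higher, with 155 and 23.1 CPM for *ACADM*. Of 4 tested ketone body genes 2 were higher and 1 was lower. *OXCT1* and *ACAT1*, which break down ketone bodies, were the higher ones (230 and 13.7 CPM, and 214 and 25.6 CPM). The summed ketone body list had 513 CPM in the *ATP4A* barcodes and 2468 CPM in the *GKN1* and *TFF1* cluster. In the same order, the fatty acid oxidation list had 3195 and 2255 CPM and the citric acid cycle list 5776 and 1723 CPM. The creatine list had 2353 and 2081 CPM, the glycolysis list 3658 and 3240 CPM, and the nuclear respiratory list 56579 and 18766 CPM. Of 4 tested genes of the creatine buffer 3 were higher and 1 was lower, with 1981 and 164 CPM for the creatine kinase *CKB* and 28.6 and 128 CPM for *GATM*, which makes the precursor of creatine. Of 22 tested mitochondrial carriers and import genes 16 were higher, with 1770 and 81.8 CPM for the ADP and ATP carrier *SLC25A4*.

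Glycolysis was mixed, with 9 of 16 tested genes higher and 3 lower. *LDHB* had 1185 CPM (1161 to 1210) and 109 CPM, whereas *LDHA*, the form that favors lactate production, had 9.57 CPM (7.49 to 12.1) and 59.0 CPM. The regulators of mitochondrial genes *PPARGC1A* (189 and 10.9 CPM) and *ESRRA* (116 and 14.8 CPM) were higher. *ESRRG*, known for its role in parietal cells, had 31.4 and 2.42 CPM, and *ESRRB* had 22.1 and 0.346 CPM, both under the filter. *NRF1* and *TFAM* had 1.46 and 2.76 CPM and 5.45 and 3.23 CPM.

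**Figure D3:**
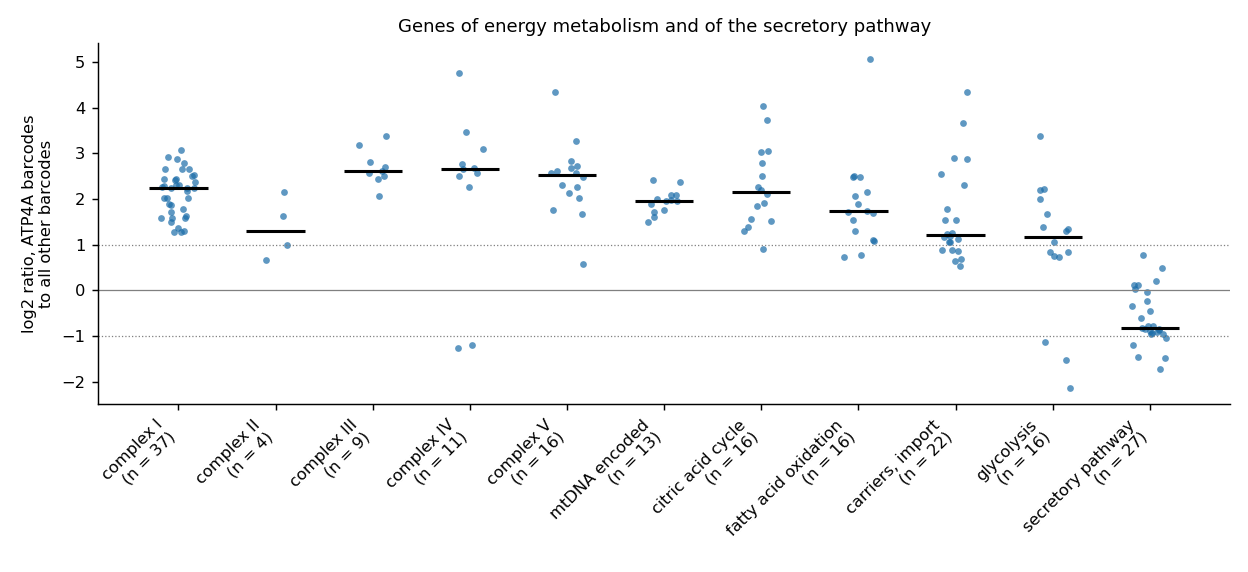
log2 ratio of the *ATP4A* barcodes to all other barcodes (pseudocount 5 CPM) for each tested gene of the respiratory complexes, mitochondrial DNA, metabolic lists, and the secretory pathway, with the median as a bar and dotted lines at a 2-fold difference. The points of complexes I and III all lie above 1, and the median of the secretory pathway is -0.82.

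Most genes of the secretory pathway differed by less than 2-fold. Of 27 tested, 0 were at least 2-fold higher and 5 were lower (*SSR2*, *SSR4*, *PDIA4*, *P4HB*, and *KDELR2*), with a median log2 ratio of -0.82. With mitochondrial genes left out of the total the median was -0.40, with 1 gene higher and 3 lower, and with genes above 1% left out it was -1.04, with 15 lower. The stress and immediate early list had no stable direction, with a median log2 ratio of -0.16, or 0.26 with mitochondrial genes left out. Of 13 tested gastric transcription factors, *FOXA2* (168 and 47.8 CPM) and *GATA4* (72.2 and 30.2 CPM) were higher, and *SPDEF* of mucous cells (9.17 and 80.3 CPM), *KLF4*, and *BARX1* were lower. The median log2 ratio of the 13 was -0.26, or 0.10 with mitochondrial genes left out. The summed level of the transcription factor list was 483 CPM in the *ATP4A* barcodes and 425 CPM in the others. It was higher in other epithelial clusters, with 1464 CPM in the *GKN1* and *TFF1*, 1057 CPM in the *TFF3* and *CLCA1*, and 930 CPM in the *GHRL* clusters. In the *CYM* and *LYZ2* clusters it was 239 CPM.

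The *ATP4A* barcodes fell mainly into 2 of the 24 clusters of the library, which together held 781 of them (94.3%). The split depended on the clustering, since the largest cluster held 65.8% of them here, 94.4% at a Leiden resolution of 0.5, and 40.0% at a resolution of 2. One cluster held 545 and was led by *CBLIF*, *ATP4A*, *ATP4B*, and *TNNI3*. Its members had a median of 9797 UMIs, 2097 genes, 31.8% mitochondrial RNA, and 1.35% *ATP4A*, and they are called gene-rich here. The other held 236 beside 66 barcodes that did not meet the rule, was led by *ENSBTAG00000011402* and mitochondrial genes, and its members are called gene-poor (6815 UMIs, 1028 genes, 50.7% mitochondrial RNA, and 0.644% *ATP4A* at the median). Across the 828 barcodes the mitochondrial share fell with the number of genes (Spearman rho -0.66, all from 1 library). The 2 quantities are tied, since UMIs spent on 13 mitochondrial genes leave fewer UMIs to detect other genes, so the sign is only a description. The remaining 47 barcodes lay in other clusters, 36 of them in non-epithelial ones, with a median of 18.7% mitochondrial RNA. They were kept among the 828. The highest doublet scores were carried by 25.2% of the barcodes of the gene-poor cluster and 4.58% of those of the gene-rich cluster.

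To compare the gene-poor with the gene-rich barcodes, mitochondrial genes were left out of the totals. The median log2 ratio of 8029 genes was then -0.32, with 22 genes at least 2-fold higher and 335 lower in the gene-poor barcodes. *ATP4B* fell by 0.92, *CBLIF* by 0.84, and *ATP4A* by 0.79 on the log2 scale, and the median over 76 nuclear respiratory genes was -0.89. *KLK1* and *EZR* were lower by more (log2 ratio -1.60 and -1.45). Summed over barcodes, and with mitochondrial genes left out, *LYZ2*, *PGA5*, and *CYM* had log2 ratios of 2.01, 1.47, and 1.01. In single barcodes, with all genes in the total, the gene-poor and gene-rich medians were 6534 and 4354 CPM for *LYZ2*, 1536 and 1593 CPM for *PGA5*, and 49247 and 48009 CPM for *CYM*. The summed and the single-barcode values differ both in the total used and in the weight of the highest barcodes, which reached 201524 CPM of *LYZ2* in the gene-poor cluster, and these were not separated. *LYZ1*, *LYZ2*, and *LYZ3* are near copies of each other, so the split of reads among them is uncertain. *TPT1* (-0.17), *RPLP1* (-0.09), and *JUN* (-0.12) differed little (*TPT1* and *RPLP1* were chosen after their values were seen).

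*CYM* made up 31.9% of UMIs at the median of the *CYM* and *LYZ2* clusters, and UMIs of the gene were found in every barcode of the library. In the *ATP4A* barcodes it had 67907 CPM, below the 195804 CPM of the others, and in single gene-rich barcodes it ranged from 2470 to 229128 CPM. In the 4394 non-epithelial barcodes the median number of *CYM* UMIs per *LYZ2* UMI was 1.15 (quartiles 0.95 and 1.42), close to the 1.30 of the 2166 barcodes of the *CYM* and *LYZ2* clusters and the 1.23 of barcodes with under 500 genes and less than 0.3% *ATP4A*. In the gene-rich barcodes it was 9.44 (2.94 and 18.2), and in the gene-poor barcodes 4.42 (2.03 and 11.8). With the highest doublet scores left out, the gene-rich median was 9.45 over 520 barcodes.

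Of the gene-rich barcodes, 513 had *LYZ2* under 1% of UMIs, and *CYM* in these was 0.247% at the lowest, 4.62% at the median, and 18.6% at the highest. The 32 with more *LYZ2* had a median ratio of 2.13, and 4 of them had the highest doublet scores. The Spearman correlation of the *CYM* and *LYZ2* shares was -0.03 over the 545 gene-rich barcodes and 0.86 over the non-epithelial barcodes, each from the same library and as a description. The highest doublet scores were carried by 0% to 42.0% of the barcodes of single non-epithelial clusters. The cluster with 42.0% had 486 barcodes and 17.6% of its UMIs from *CYM*. The part of such mixtures in the 0.86 was not tested. The 97.5th percentile of the non-epithelial ratio was 3.19, and 398 gene-rich (73.0%) and 143 gene-poor barcodes (60.6%) lay above it. A ratio above that of non-epithelial barcodes was also seen in the cluster led by *GKN1* and *TFF1* (median 3.14) and the clusters led by *TFF3* and *CLCA1* (2.84). It was not seen in the *GHRL* cluster (1.09). With *PGA5*, the pepsinogen gene, in place of *LYZ2*, the summed ratio was 26.6 in the gene-rich, 19.3 in the gene-poor, and 9.65 in the non-epithelial barcodes. It was 9.26 in the *CYM* and *LYZ2* clusters, 6.63 in the *TFF3* and *CLCA1* clusters, and 1.62 in the *GKN1* and *TFF1* cluster, so these last clusters lay above the non-epithelial barcodes by *LYZ2* and below them by *PGA5*. The part of free RNA in the *CYM* of the *ATP4A* barcodes was not tested. The order of the groups was the same with *LYZ1*, *LYZ2*, and *LYZ3* summed, with medians of 6.33 in the gene-rich and 0.762 in the non-epithelial barcodes.

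**Figure D4:**
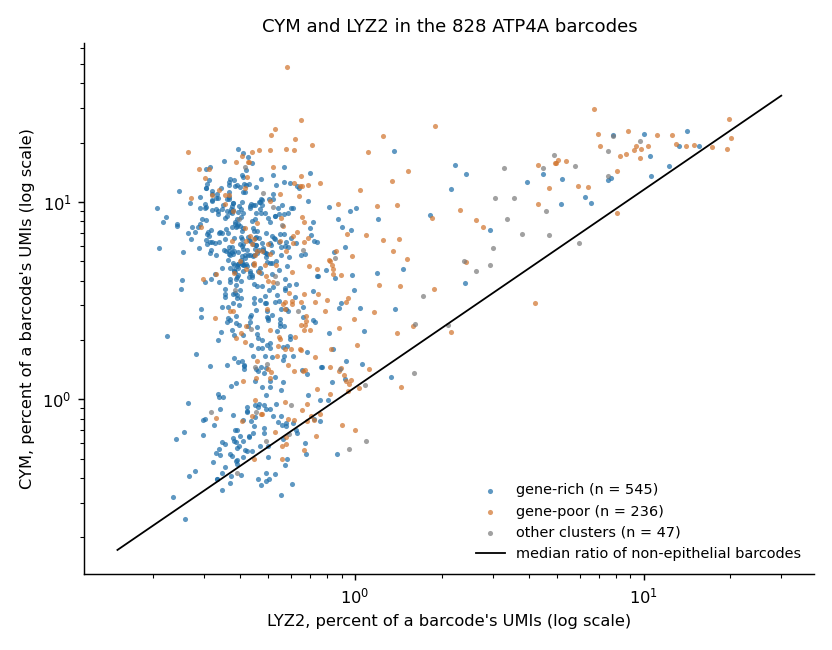
Share of *CYM* and of *LYZ2* in the UMIs of each of the 828 *ATP4A* barcodes (both axes log scale), by cluster, with a line at the median ratio of the non-epithelial barcodes (1.15). Most blue points lie above the line at *LYZ2* under 1%, over a wide range of *CYM*, and a smaller number lie nearer to it at higher *LYZ2*.

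The gene-rich barcodes were then ordered by their share of *CYM*, a split chosen after the values were seen, with *CYM* left out of the totals of all other genes. In the 94 barcodes with *CYM* under 1% and the 139 with 8% or more, depth was alike (median 9492 and 10497 UMIs, and 2252 and 2110 genes), and mitochondrial RNA was 31.4% and 28.7%. *KCNQ1* had 11.2 CPM (5.35 to 20.5) and 274 CPM (247 to 303), with intermediate levels of 20.4, 56.7, and 162 CPM in the bands between, and a *KCNQ1* UMI was seen in 8.51% and 85.6% of barcodes. Its channel partner *KCNE2* did not follow it, with 150 and 135 CPM. *SLC12A2* rose from 93.8 to 311 CPM over the same bands. *PPP1R1A* (5.58 and 104 CPM), *DAPL1* (3.35 and 38.9 CPM), and *ARHGDIG* (49.1 and 330 CPM), chosen after their values were seen, were also higher in the highest band than in the lowest, though their levels did not rise at every step between. In the lowest band *PPP1R1A* and *DAPL1* had only 5 and 3 UMIs, each in 3 of the 94 barcodes. In the highest band they were seen in 38.9% and 17.3% of barcodes. *ARHGDIG* was also a leading gene of a *CYM* and *LYZ2* cluster. 2 genes of other gland cells were higher in the highest band as well. *PGA5* had 2059 and 3640 CPM, and the mucous cell peptide *TFF2* 112 and 369 CPM. *PGA5* did not rise over the 4 lower bands (2059, 1939, 1895, and 1681 CPM). With the highest doublet scores left out, *TFF2* had 85.8 and 85.4 CPM and *PGA5* 2043 and 3265 CPM, while *KCNQ1* had 9.40 and 281 CPM. The part of *PGA5* and *TFF2* in the order of the other genes was not tested.

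Other genes ran against *CYM*. *CLEC2L* fell from 551 CPM (504 to 602) to 51.4 CPM (40.1 to 64.9), *KLK1* from 1249 to 317 CPM, *EZR* from 1394 to 471 CPM, and *GSTA3* from 584 to 152 CPM. *TSPAN1*, chosen after its values were seen, fell from 776 to 197 CPM, and *HRH2* from 106 to 40.4 CPM. The pump genes changed less, from 18424 to 12103 CPM for *ATP4A* and from 11791 to 6659 CPM for *ATP4B*. *ATP4A* chose the barcodes, which limits how low it can be, so the size of its change is only a description. Smaller differences were seen for *CBLIF* (7335 and 9202 CPM), *AQP4* (529 and 699 CPM), *TNNI3* (3221 and 3691 CPM), *PPARGC1A* (249 and 225 CPM), and *SLC4A2* (733 and 650 CPM). *LYZ2* had 4411 to 5355 CPM in the 4 lower bands and 22169 CPM in the highest, which held 23 of the 32 gene-rich barcodes with *LYZ2* of at least 1%.

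**Figure D5:**
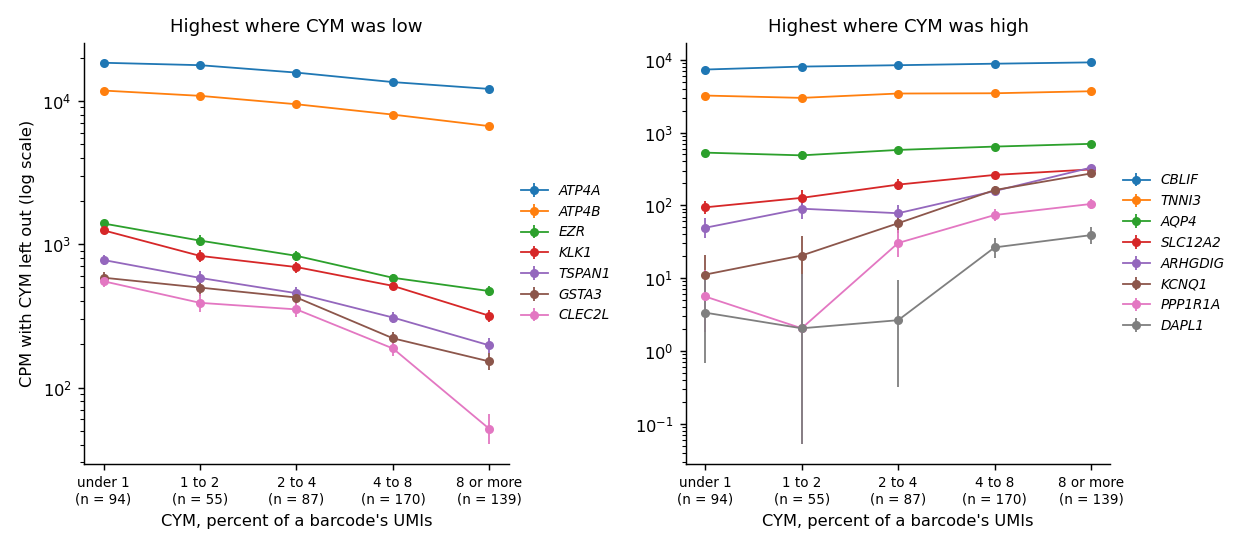
CPM, with *CYM* left out of the total (log scale), in 5 bands of the *CYM* share of the 545 gene-rich barcodes, with 95% Poisson counting intervals. Left, genes highest where *CYM* was low; *CLEC2L* falls from 551 to 51.4 CPM. Right, genes highest where *CYM* was high; *KCNQ1* rises from 11.2 to 274 CPM, while *AQP4* goes from 529 to 699 and *TNNI3* from 3221 to 3691 CPM.

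Across the 545 gene-rich barcodes, Spearman's rho with the *CYM* share was 0.60 for *KCNQ1*, 0.51 for *ARHGDIG*, and 0.17 for *TNNI3*. With the same share, rho was -0.58 for *CLEC2L*, -0.58 for *TSPAN1*, -0.53 for *KLK1* and *EZR*, and -0.52 for *ATP4B*. It was 0.25 for the number of UMIs and -0.05 for the number of genes. The *ATP4A* share chose the barcodes, so values ordered by it are only a description of them. Spearman's rho with that share was 0.54 for *ATP4B*, 0.58 for *KLK1*, 0.55 for *EZR*, 0.49 for *ATP5MC1*, -0.47 for *KCNQ1*, and -0.59 for *CYM*. From the 112 gene-rich barcodes with 0.5% to 1% *ATP4A* to the 62 with 2% or more, the summed nuclear respiratory genes went from 56900 to 80477 CPM, *CYM* from 91201 to 16869 CPM, and *KCNQ1* from 182 to 14.99 CPM. The rho of *ATP4A* with the *CYM* share was -0.50, and that of *CYM* with the *ATP4A* share was -0.59, so the 2 sets were not scaled alike. All these barcodes share 1 library, and each level is a share of a barcode's UMIs, so the correlations describe these barcodes only.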

How the data were processed

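The authors counted UMIs per gene and barcode with CellRanger 3.1.0 against ARS-UCD1.2, and the deposited tables hold these counts with no normalization. Annotation release is not given in the sources used here. Rows that share a symbol were summed. The members and gene lists were chosen with earlier results of these data known. For each group, UMIs were summed and divided by the group total (CPM), with exact Poisson 95% intervals, exact conditional binomial intervals for ratios, and Clopper-Pearson intervals for shares. The log2 ratio used a pseudocount of 5 CPM, genes with at least 5 CPM over the library were tested, and a gene was called at 2-fold. With 1 library there was no test and no p-value. Barcodes within the limits were clustered (2000 variable genes, 30 principal components, 20 neighbors, Leiden resolution 1). Doublets were scored by an implementation of the Scrublet method, the highest 801 of 10004 scores were marked, and no barcode was removed for it. A cluster was called non-epithelial when its summed markers of immune, stromal, and other such cells exceeded those of epithelial cells. Genes named are those of the lists, the 25 highest and 15 lowest ratios, and others said to be chosen after their values were seen. The values of a few list genes are not reported here. The comparison was tested on simulated data. Python 3.11.15, NumPy 2.4.6, SciPy 1.17.1, pandas 2.3.3, scikit-learn 1.9.0, igraph 0.11.9, leidenalg 0.10.2, and matplotlib 3.10.9 were used.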

Additional observations from a re-analysis of the deposited data

How the results depend on the processing

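The *ATP4B* ratio and the medians of the acid secretion and respiratory chain lists stayed above 0 under the alternatives run. The median of all genes (0.024, or -0.133 with genes above 1% left out) and, with mitochondrial genes left out, those of the stress list (-0.16 to 0.26) and the gastric transcription factors (-0.26 to 0.10) changed sign. The acid secretion median of 0.983 ranged from 0.343 with no filter on low genes to 1.43 with mitochondrial genes left out. The *ATP4B* log2 ratio was 5.91 and ranged from 4.46 to 6.87. It was 5.12 with *ATP4A* of at least 1%, 6.48 under 40% mitochondrial UMIs, 6.02 without the highest doublet scores, 6.58 against others within the limits, 6.87 against epithelial clusters, 4.46 as the mean of single barcodes, 5.76 with genes above 1% left out, and 5.96 and 5.74 with a pseudocount of 1 and 20 CPM. The respiratory chain median of 2.32 became 2.17 with *ATP4A* of at least 0.1%, 2.55 against epithelial clusters, 2.08 as the mean of single barcodes, 2.18 with genes above 1% left out, and 2.19 with a pseudocount of 20 CPM. The numbers of higher and lower genes (809 and 981) were 496 and 348 with a pseudocount of 20 CPM, 496 and 523 at 20 CPM or more, and 237 and 225 at 4-fold, and 260 were lower against epithelial clusters. With *ATP4A* of at least 1% there were 472 barcodes in place of 828. The median mitochondrial share was 25.9 percentage points above that of the other barcodes, and 24.6 and 24.5 points with *ATP4A* of at least 0.1% and 1%, 24.0 under 40% mitochondrial UMIs, 28.0 against others within the limits, and 29.3 against epithelial clusters. The largest cluster held 65.8% of the *ATP4A* barcodes, 94.4% at resolution 0.5, 40.0% at resolution 2, and 50.6% with 15 principal components.

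Alternatives chosen after seeing the data were the gene-rich barcodes alone (545 barcodes, *ATP4B* 6.15, respiratory chain 2.57, mitochondrial difference 24.6 points), the members of the 2 leading clusters alone (781 barcodes, 817 higher and 1098 lower genes), and mitochondrial genes left out of the total (*ATP4B* 6.37, respiratory chain 2.78, 1556 higher and 767 lower genes). The causes of these shifts were not tested. No paired analysis was possible because the result comes from 1 library and no test. Depth limits genes near 1 CPM, where a receptor with 0 UMIs may reach 0.490 CPM.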

Other observations

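Families of the leading genes were compared after their values had been seen. Of the vacuolar proton pump, *ATP6V1G3* had 361 and 4.47 CPM in the *ATP4A* barcodes and the others and passed the filter only through the former, *ATP6V1E1* 275 and 49.4 CPM, and *ATP6V1D* 92.4 and 30.1 CPM. *ATP6V0A4*, known from acid secreting cells of the kidney, had 13.4 CPM (10.9 to 16.3) and 1.85 CPM and was under the filter. *ATP6V1B1* and *ATP6V0D2* had 11 and 0 UMIs in the *ATP4A* barcodes and were under the filter as well. Other subunits, among them *ATP6V1G1* (98.9 and 101 CPM), *ATP6V1B2* (18.3 and 16.7 CPM), and *ATP6V0E1* (183 and 214 CPM), differed by less than 2-fold. *CDH16* and *ATP6V1G3* are genes best known from kidney epithelium.

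Of the glutathione transferases, *GSTA1* had 64.3 and 3.25 CPM and passed the filter only through the *ATP4A* barcodes, and *GSTA4* had 58.9 and 13.4 CPM. *GSTM1* (58.2 and 21.8 CPM) and *GSTM3* (30.3 and 10.3 CPM) were at least 2-fold higher as well. *GSTP1* (91.0 and 190 CPM), *GSTA2* (12.4 and 31.5 CPM), and *GSTT2* (5.98 and 17.2 CPM) were lower. *CA8*, a member of the carbonic anhydrase family without enzyme activity, had 79.0 and 10.3 CPM. *SERPINI1* had 110 and 5.30 CPM, with 105 CPM in the *GHRL* cluster. *UCP2*, an uncoupling protein of mitochondria, was lower (90.4 and 261 CPM). The barcodes with at least 0.3% *ATP4A* and under 500 genes, which the rule left in the contrast, numbered 334. They had a median of 1937 CPM of *ATP4B* and 36.2% mitochondrial RNA.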
